A study of Mus musculus with 10 samples.

Results

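Mouse embryonic fibroblasts (MEFs) had been turned into induced embryonic Sertoli-like cells (ieSCs), which were set against MEFs that had not been converted. The arrays were chosen by their labels alone: 4 arrays of MEF-derived ieSCs and 2 arrays of MEFs, 6 of the 10 arrays of the study. The other 4 arrays held ieSCs of another origin, tail tip fibroblasts (TTFs) of a female, and are used below to ask whether a difference from MEFs was also a difference between the ieSCs of the 2 origins. No array held unconverted TTFs. A difference of TTF-derived ieSCs from MEFs, or between the ieSC groups, therefore holds the origin of the cells as well as their conversion. All 3 groups had the congenic background homozygous for R26-M2rtTA, which expresses a doxycycline-responsive activator. Both ieSC groups also carried transgenes for Nr5a1, Wt1, Dmrt1, Gata4 and Sox9 and were sampled 2 weeks after doxycycline had been withdrawn. The MEFs carried none of these factor transgenes and had been cultured for 2 weeks. All were grown in F12/DMEM without doxycycline, and total RNA was labelled with Cy3 for Agilent arrays. Each ieSC group has 2 names, 1 and 2, with 2 arrays each (1a, 1b, 2a and 2b), and the MEFs have 1 name (arrays a and b). The labels do not say whether the arrays of a name came from separate cultures, whether a name is a clone, from how many embryos the MEFs came, or whether the sampled MEFs were the parents of the converted cells. The spread behind the p-values is therefore that among these arrays and names and may in part be technical, and the unconverted side rests on 1 name.

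Sertoli cells are the somatic cells that line the tubules of the testis and support the germ cells. They divide before and after birth and leave the cell cycle at puberty. MEFs are a mixed culture of connective tissue cells of the embryo that divides for a limited number of passages. In dividing cells, E2F factors switch on the genes of DNA replication at the start of S phase, and the MuvB complex with B-Myb and FOXM1 switches on the genes of mitosis later. Inhibitors of cyclin-dependent kinases, such as p16INK4a of the Cdkn2a locus, keep the retinoblastoma proteins active and hold both programmes down.

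Values below are deposited log2 levels, and differences are log2 differences ± standard error (SE) from a fit over all 10 arrays with limma, with adjusted p-values over the 16650 genes tested. A gene is said to have risen or fallen where its adjusted p was under 0.05. Levels near or under about 5.0, the 40th percentile of each array, belong to the dim end of the scale, and differences from there are set by the end of the scale and are no ratio of transcript amounts. Across all features MEF arrays correlated with MEF-derived ieSC arrays at 0.926 to 0.931, and arrays of a shared name with each other at 0.99 to 0.997. Markers of the X and Y chromosomes differed between the groups. Xist, the RNA that marks an inactive X chromosome, was bright in MEFs (9.37 and 9.31) and at 3.41 to 4.60 over the 4 MEF-derived ieSC arrays. Eif2s3y, a gene of the Y chromosome, lay at 10.29 and 10.33 in MEFs and between 3.16 and 3.83 in MEF-derived ieSCs. The MEF RNA thus held both transcripts, while in the ieSCs derived from MEFs, as in those from TTFs, both were at the dim end. Of 26 macrophage genes tested, 24 were lower in MEF-derived ieSCs than in MEFs. The mean level of the macrophage list was 10.95 to 10.97 in MEFs and 6.56 to 6.69 on the MEF-derived ieSC arrays, where 8 of its members were at the dim end and C1qa, Tyrobp and Ctss lay at 3.86 to 4.19, 3.76 to 4.41 and 4.31 to 5.10. In bulk RNA, fewer cells of a type and less RNA per cell cannot be told apart, and this holds for every list below.

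MEF-derived ieSCs differed from MEFs in 8524 genes. Of the genes tested, 4527 rose (27.2%) and 3997 fell (24%), with a median difference of 0.10 over all genes. The counts of every list below are to be read beside these shares. Rises of at least 2 on the log2 scale numbered 999 and falls of that size 1549. With the 2 arrays of each name averaged to 1 value before the fit, so that the names alone gave the spread, 5899 genes passed. Of the falls, 2277 did not pass between the 2 kinds of ieSC and 328 were called higher in MEF-derived than in TTF-derived ieSCs, and of the rises 2187 did not pass and 465 were called lower. Between the ieSCs, 3209 genes were higher in MEF-derived cells (19.3%) and 2789 lower (16.8%), and with names averaged these 5998 calls became 2421. Genes called in the same direction in both comparisons numbered 1875 upward (11.3%) and 1392 downward (8.36%). These comparisons share the 4 MEF-derived ieSC arrays, so a count over both is a description and neither comparison supports the other. TTF-derived ieSCs against the same 2 MEF arrays gave 3872 genes higher (23.3%) and 3640 lower (21.9%).

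Of the 5 transgene factors, Wt1 alone was higher than in MEFs. Wt1, a zinc finger factor of the gonad, kidney and mesothelium, lay at 11.47 and 11.50 in MEFs and at 16.71, 16.78, 17.47 and 17.52 in MEF-derived ieSCs, a rise of 5.63 ± 0.29 (adjusted p = 3.67e-07). Sox9, the factor that directs Sertoli fate, fell by 3.22 ± 0.19 (adjusted p = 7.58e-07), and Gata4, Nr5a1 and Dmrt1 fell by 1.82 ± 0.35, 0.71 ± 0.14 and 0.63 ± 0.17. All 4 MEF-derived ieSC arrays lay below both MEF arrays for each of these 4 genes. Whether a feature reads transcripts of a transgene, of the cell's own gene or of both was not examined.

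The genes of cell division were lower in MEF-derived ieSCs than in MEFs, and lower still against TTF-derived ieSCs. Of 71 tested genes of mitosis and the kinetochore, 65 fell, none rose and 6 did not pass, with a list median of -2.38. Against TTF-derived ieSCs all 71 were lower, with a median of -3.27. In TTF-derived ieSCs against the same MEF arrays, 49 of the 71 were called higher and none lower, with a median of 0.85. Top2a, the topoisomerase that untangles sister chromatids, had levels of 10.30 and 10.21 in MEFs, and 5.57, 5.36, 5.36 and 5.50 on arrays 1a, 1b, 2a and 2b of the MEF-derived ieSCs, against 11.10 to 11.44 over the 4 TTF-derived arrays. The 3 groups did not overlap, and Top2a fell by 4.81 ± 0.17 (adjusted p = 4.06e-08). Mki67, the marker of cycling cells, lay at 13.02 and 13.15 in MEFs and at 6.19, 6.04, 6.86 and 6.87 in the MEF-derived ieSCs, a fall of 6.60 ± 0.32 (adjusted p = 2.42e-07), with name 1 lower than name 2. Plk1, a kinase that drives entry into mitosis, fell by 3.55 ± 0.15. Birc5, a subunit of the chromosomal passenger complex, fell by 4.56 ± 0.23, and Ube2c, which feeds ubiquitin to the anaphase-promoting complex, by 4.87 ± 0.22. The 6 that did not pass were Cenpf at -0.63 ± 0.41, Kif18a at 0.41 ± 0.29, Pttg1 at 0.11 ± 0.13, Ect2 at -0.84 ± 0.37, Cep55 at -0.47 ± 0.19 and Ckap2 at -0.28 ± 0.29. Pttg1, the securin that guards sister chromatid cohesion, stayed bright in all groups, at 13.27 and 13.27 in MEFs and 13.39, 13.55, 13.28 and 13.31 in MEF-derived ieSCs.

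**Figure D1:**
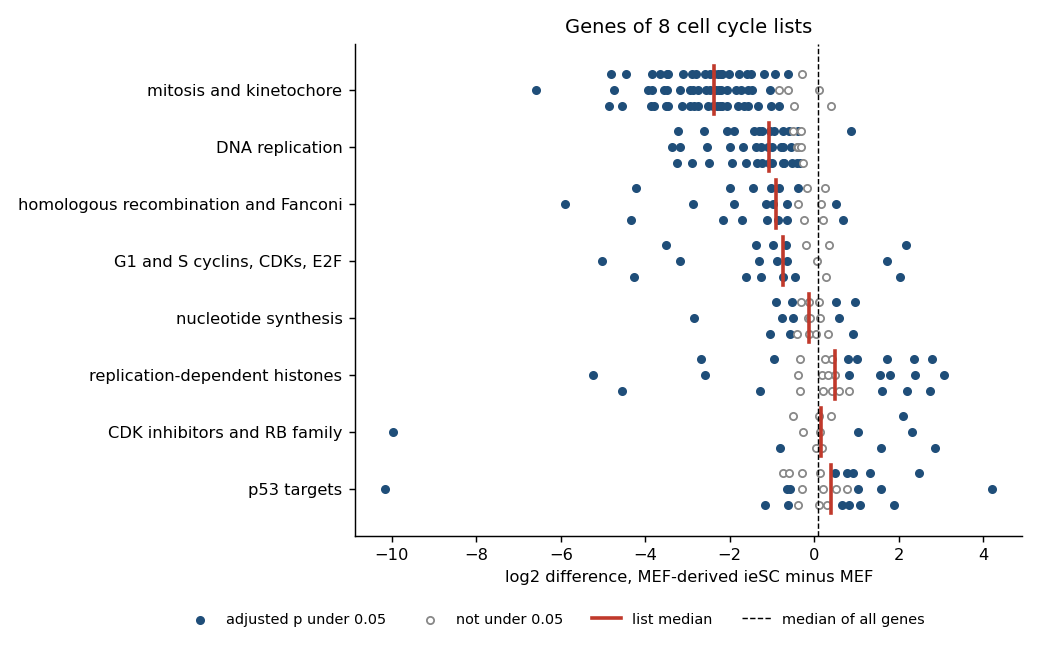
Each point is 1 gene and the x axis is its log2 difference, MEF-derived ieSC minus MEF. Filled points passed an adjusted p of 0.05, red bars are list medians and the dashed line is the median of all genes (0.10). Nearly all points of the mitosis and replication lists lie left of 0, with medians of -2.38 and -1.06, while the histone and p53 lists spread to both sides.

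The upstream sequence of some of these genes is shown because the mitosis genes moved together and their promoters are known for a pair of short elements: the cell cycle homology region, whose core is TTTGAA, and the CCAAT box bound by NF-Y. Chosen were fallen mitosis genes that hold TTTGAA within 60 bases of the start and CCAAT within 250, on either strand. Promoters of 1 chromosome were left out of the choice. Below are the 120 bases just before the start of those with the smallest p. They are from RefSeq, assembly GRCm38.p6, written 5′ to 3′ on the strand of the gene, with every TTTGAA or its reverse complement TTCAAA and every CCAAT or its reverse complement ATTGG in capitals. Top2a is at chr11:99024190-99024309 on the minus strand, Ube2c at chr2:164769809-164769928 on the plus strand, Ckap2l at chr2:129297213-129297332 on the minus strand and Prc1 at chr7:80294356-80294475 on the plus strand.
Top2a: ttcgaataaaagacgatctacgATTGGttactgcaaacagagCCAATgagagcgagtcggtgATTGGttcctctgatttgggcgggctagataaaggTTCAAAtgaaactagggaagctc
Ube2c: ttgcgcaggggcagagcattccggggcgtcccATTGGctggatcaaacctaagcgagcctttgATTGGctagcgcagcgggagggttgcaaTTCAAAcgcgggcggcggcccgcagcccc
Ckap2l: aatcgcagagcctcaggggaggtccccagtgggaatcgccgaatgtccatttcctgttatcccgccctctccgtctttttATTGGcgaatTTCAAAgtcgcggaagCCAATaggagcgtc
Prc1: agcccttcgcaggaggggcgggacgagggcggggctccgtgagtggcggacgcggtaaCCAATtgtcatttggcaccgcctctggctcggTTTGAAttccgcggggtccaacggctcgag
Ckap2l, a microtubule-binding protein of the spindle, fell by 3.83 ± 0.21, and Prc1, which bundles microtubules at the spindle midzone, by 3.85 ± 0.24. Of the 65 fallen mitosis genes, 56 had an entry, with 60 starts between them. TTTGAA on either strand within 60 bases of the start was found in 15 of these 60 (25%), against 1050 of all 32851 promoters in the table (3.2%). CCAAT on either strand within 250 bases was found in 41 of 60 (68.3%) against 33.8% of all promoters. The 2 motifs differ in sequence, although their matches can share 1 base at an end. Both together, TTTGAA near the start and CCAAT, were found in 12 of 60 (20%) and in 1.23% of all. In the 37 starts of the fallen DNA replication genes, 1 held TTTGAA near the start (2.7%) and 21 held CCAAT (56.8%). The list holds mitosis genes, whose promoters are known for these elements, and members that did not fall were not counted apart. The shares therefore say nothing of a link between the motifs and the fall. A match describes these letters only and says nothing of whether a factor was bound.

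Genes of DNA replication fell as well. Of 45 tested, 38 fell, 1 rose and 6 did not pass, with a median of -1.06, and against TTF-derived ieSCs 41 were lower and 1 higher. Mcm3, a subunit of the replicative helicase, lay at 13.33 and 13.20 in MEFs and at 10.56, 10.52, 10.76 and 10.80 in MEF-derived ieSCs, with TTF-derived ieSCs at 13.05 to 13.22. MEFs and TTF-derived ieSCs were thus at a like level and MEF-derived ieSCs lay below both, with a fall of 2.60 ± 0.14 from MEFs (adjusted p = 4.01e-07). Mcm10, which helps to load the polymerase, fell by 3.25 ± 0.20, and Uhrf1, which brings DNA methylation to new strands, by 3.37 ± 0.30, although the features of Uhrf1 ranged from -3.37 to -1.02. Pold2, a subunit of DNA polymerase delta, was the gene that rose, by 0.88 ± 0.14 (adjusted p = 0.000735). Pcna, the sliding clamp, did not pass at -0.37 ± 0.15 (adjusted p = 0.0613) and lay at 14.45 and 14.38 in MEFs and 13.90, 13.96, 14.16 and 14.13 in the ieSCs.

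Among 26 genes of homologous recombination and the Fanconi pathway, 18 fell, 2 rose and 6 did not pass. Exo1, a nuclease that trims broken ends, lay at 9.82 and 9.73 in MEFs and 5.32, 5.59, 5.61 and 5.72 in MEF-derived ieSCs, and fell by 4.22 ± 0.19 (adjusted p = 1.63e-07). The 2 genes that rose were Atm, the kinase that senses broken DNA, at 0.52 ± 0.12, and Fancg at 0.67 ± 0.24 (adjusted p = 0.0394), which did not pass when MEF array a or b (adjusted p = 0.0913 and 0.0561), array 2a, name 1 or TTF-derived array 2a or 2b was left out. With names averaged Atm did not pass either (adjusted p = 0.074). Brca2, Chek1 and Atr were among the 6 that did not pass.

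Most genes of the list of cyclins, their kinases and E2F factors fell, and a few rose. Of 21 genes of G1 and S phase, 14 fell, 3 rose and 4 did not pass. Ccna2, the cyclin of S and G2 phase, lay at 11.84 and 11.93 in MEFs and 6.80, 7.05, 6.64 and 6.92 in MEF-derived ieSCs, and fell by 5.03 ± 0.21 (adjusted p = 9.55e-08). The cyclin gene Ccne1 fell by 1.38, while the cyclin genes Ccnd2 and Ccnd3 did not pass, at 0.27 and 0.06. Mybl2, which encodes B-Myb, fell by 3.17 ± 0.19, and the repressor E2f8 by 3.51 ± 0.25. E2f7, another repressor of the family, fell by 4.27 ± 0.28 on its brightest feature, and its 2 features ranged from -4.27 to 0.23. The 3 that rose act in G1. Ccnd1, which encodes cyclin D1, lay at 15.64 and 15.69 in MEFs and at 17.75, 17.61, 17.10 and 17.12 in MEF-derived ieSCs, a rise of 1.73 ± 0.40 (adjusted p = 0.00541), with name 1 above name 2, and did not pass with names averaged (adjusted p = 0.0805). Cdk6, the kinase that cyclin D binds, rose by 2.18 ± 0.14, and Tfdp2, a partner of the E2F factors, by 2.04 ± 0.17. Foxm1, a factor of the mitosis genes, fell by 1.62 ± 0.18 and lay 2.49 ± 0.15 below its level in TTF-derived ieSCs.

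Of 14 inhibitors of cyclin-dependent kinases and members of the retinoblastoma family, 5 rose, 2 fell and 7 did not pass. Within this list the widest differences between the ieSC groups lay at the neighbouring genes Cdkn2a and Cdkn2b on chromosome 4. Cdkn2a, which encodes p16INK4a and ARF, lay at 13.92 and 13.78 in MEFs, at 16.83, 16.73, 16.56 and 16.69 in MEF-derived ieSCs and at 4.07 to 4.54 in TTF-derived ieSCs. MEF-derived ieSCs were the highest and TTF-derived ieSCs were at the dim end on all 4 arrays. The rise over MEFs was 2.85 ± 0.19 (adjusted p = 1.65e-06), and the difference from TTF-derived ieSCs 12.37 ± 0.15 (adjusted p = 3.1e-10), a size that depends on the array's dim end. Cdkn2b, which encodes p15INK4b, followed the same order, at 13.27 and 13.19 in MEFs, 15.47, 15.47, 15.23 and 15.14 in MEF-derived ieSCs and 3.49 to 3.92 in TTF-derived ieSCs, and rose by 2.10 ± 0.26. No feature separates p16INK4a from ARF by name, and the 2 features of Cdkn2a rose by 2.85 to 3.22.

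Cdkn1a, which encodes p21, lay at 15.40 and 15.44 in MEFs and at 17.24, 17.06, 16.73 and 17.01 in MEF-derived ieSCs, a rise of 1.59 ± 0.44 (adjusted p = 0.0129). Cdkn2c rose by 2.33 ± 0.27 and Rb1, the retinoblastoma gene, by 1.05 ± 0.12. Cdkn1c, an imprinted inhibitor, went the other way, from 14.47 and 14.34 in MEFs to 4.23, 4.47, 4.71 and 4.31 in MEF-derived ieSCs. It was equally dim in TTF-derived ieSCs (3.86 to 4.39), and its fall was 9.98 ± 0.27. Cdkn1b, which encodes p27, fell by 0.82 ± 0.19 (adjusted p = 0.00509). Cdkn1a and Cdkn1b did not pass with names averaged (adjusted p = 0.124 and 0.0744), nor Cdkn1a without name 1 (adjusted p = 0.0567).

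**Figure D2:**
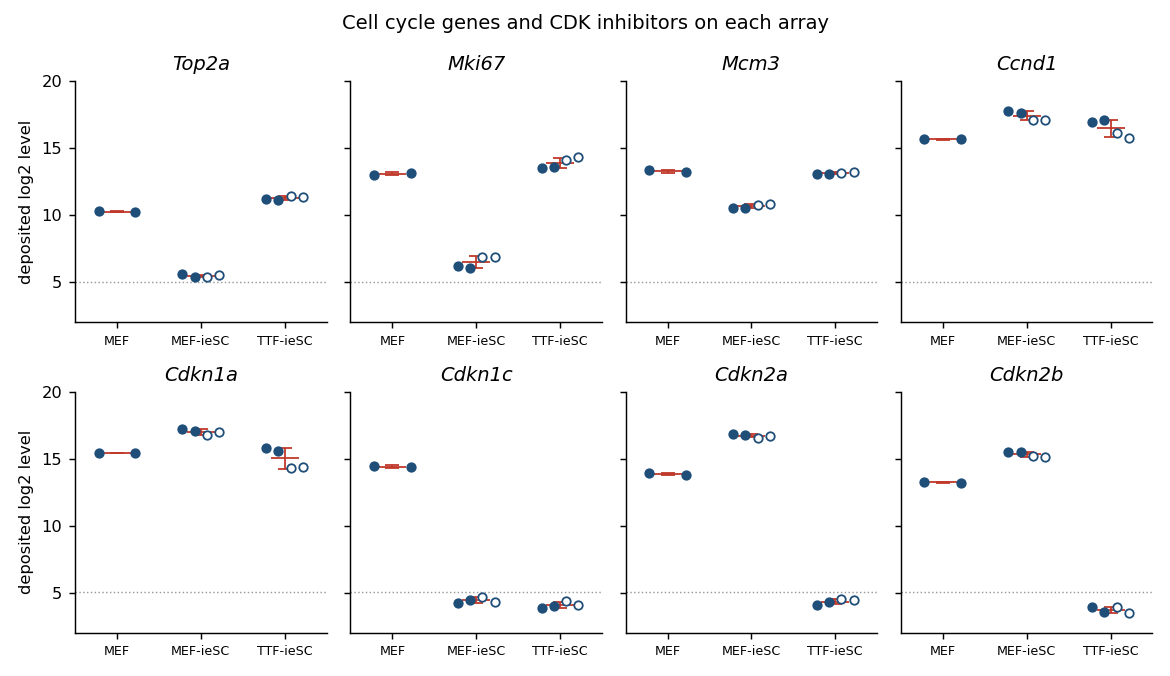
Each point is 1 array and the y axis is the deposited log2 level, with filled points for MEFs and name 1, open points for name 2, red bars for the mean ± SD and a dotted line at the 40th percentile. Top2a, Mki67 and Mcm3 are lowest in MEF-derived ieSCs, Cdkn2a and Cdkn2b are highest there and at the dim end in TTF-derived ieSCs, and Cdkn1c is bright in MEFs only.

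Cdkn1a is also a target of p53, and the p53 list moved in both directions. Of 28 targets tested, 12 rose, 5 fell and 11 did not pass, with a median of 0.41. With names averaged 7 rose and 3 fell. Perp, a membrane protein of junctions and cell death, lay at 11.73 and 12.02 in MEFs and 16.45, 16.45, 15.74 and 15.72 in MEF-derived ieSCs, a rise of 4.21 ± 0.27 (adjusted p = 1.47e-06). Mdm2, the ligase that degrades p53, rose by 1.31 ± 0.28, Gadd45a by 2.49 ± 0.15 and Ccng1 by 1.08 ± 0.23. Between the ieSCs, 16 targets were higher in MEF-derived cells and 2 lower (4 without name 1), and with names averaged 7 were higher. Gadd45g fell furthest, from 17.00 and 16.68 in MEFs to 7.81, 7.84, 5.60 and 5.48 in MEF-derived ieSCs, and was lower in name 2 than in name 1. The other 4 that fell were Tnfrsf10b by 1.16 ± 0.18, Gadd45b by 0.58 ± 0.18, Btg2 by 0.63 ± 0.17 and Plk3 by 0.62 ± 0.14, and Gadd45b was at -0.81 without name 1 and at -0.35 (adjusted p = 0.0766) without name 2. Mdm2, Ccng1, Btg2 and Gadd45b did not pass with names averaged.

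Histone genes split in the same samples. Of 31 tested replication-dependent histone genes, 13 rose, 6 fell and 12 did not pass. H1f5, a linker histone, lay at 12.22 and 12.12 in MEFs and at 6.67, 6.68, 7.31 and 7.02 in MEF-derived ieSCs and fell by 5.25 ± 0.29 (adjusted p = 5.12e-07), and H2ac4 fell by 4.55 ± 0.24. H4c9 went from 9.40 and 9.50 to 12.67, 12.65, 12.37 and 12.43, a rise of 3.08 ± 0.26 (adjusted p = 7.85e-06), and H3c7 rose by 2.36 ± 0.17. Histone genes are near-identical copies, so which copy a feature reads is uncertain. Of 21 genes of nucleotide synthesis, 7 fell, 4 rose and 10 did not pass. With names averaged 3 fell and 2 rose, and without MEF array b, without array 2b or without either name 2 rose. Tk1, the thymidine kinase of S phase, fell by 2.85 ± 0.15 (adjusted p = 3.34e-07), while Rrm1, the large subunit of ribonucleotide reductase, rose by 0.97 ± 0.15 (adjusted p = 0.00042).

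Serine protease inhibitor genes of a stretch of chromosome 13 were among the largest rises. Of the 23 genes annotated between Serpinb1a and Serpinb9g, ends set by the list, 10 were tested and these rose. A gene that is dim in MEFs was tested only where other arrays brought it over the filter, so how many of the tested genes of a list or stretch rose is in part set by the filter. This holds for the Serpinb9, prolactin, placental, cystatin and Akr1c genes and for the predicted genes of chromosome 12. Nothing is read from those counts. Serpinb9 itself is the inhibitor of granzyme B, and its neighbours are related in sequence. Serpinb9f lay at 4.02 and 3.70 in MEFs, at 13.70, 13.77, 14.07 and 13.97 in MEF-derived ieSCs and at 5.75 to 6.33 in TTF-derived ieSCs. It rose by 10.02 ± 0.25 over MEFs (adjusted p = 7.29e-09) and was 7.83 ± 0.20 above TTF-derived ieSCs (adjusted p = 2.77e-08), from a level at the dim end in MEFs. Serpinb9e and Serpinb9g rose by 9.96 ± 0.30 and 8.56 ± 0.32 and lay 7.80 ± 0.24 and 7.47 ± 0.26 above TTF-derived ieSCs. Serpinb9 was bright in both kinds of ieSC: 9.87 and 9.89 in MEFs, 14.26, 14.22, 14.33 and 14.36 in MEF-derived and 13.47 to 13.64 in TTF-derived ieSCs, a rise of 4.41 ± 0.11 (adjusted p = 6.79e-09). Serpinb9d and Serpinb9c rose by 5.73 ± 0.46 and 3.43 ± 0.54, with name 1 above name 2, and stayed dim in TTF-derived ieSCs. Serpinb9e, Serpinb9f and Serpinb9g are close copies, and a feature may read more than 1 of them.

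The granzymes themselves, serine proteases of killer lymphocytes, differed between the 2 names of MEF-derived ieSCs. Gzmb lay at 5.55 and 5.01 in MEFs and at 11.15, 11.05, 7.84 and 7.75 in MEF-derived ieSCs, and rose by 4.16 ± 1.06 (adjusted p = 0.00876). Gzmc lay at 8.13 and 8.11 in MEFs and 14.40, 14.29, 9.90 and 9.67 in MEF-derived ieSCs, and rose by 3.94 ± 1.39 (adjusted p = 0.0392). Both names lay above MEFs for these genes, name 1 far above name 2. Without name 1 the rise was 2.51 for Gzmb and 1.67 for Gzmc (adjusted p = 0.0515), without name 2 that of Gzmc was 6.22, and neither passed with names averaged (adjusted p = 0.103 and 0.215). Gzmc also did not pass when either MEF array, array 1a or 1b or most TTF-derived arrays were left out. Gzme lay at 11.21 and 11.18 in MEFs and at 14.45, 14.37, 7.33 and 7.37 in MEF-derived ieSCs: name 1 was above and name 2 below both MEF arrays, and the mean difference of -0.32 ± 2.06 did not pass, with -3.85 without name 1 and 3.21 without name 2. Gzmd was split in the same way, at 5.41 and 5.77 in MEFs and 9.29, 9.31, 4.92 and 4.16 in MEF-derived ieSCs. Gzma and Prf1, which encodes the perforin that carries granzymes into target cells, did not pass, at 0.11 ± 0.20 and 0.07 ± 0.21. Of 17 tested T and NK cell markers, 3 rose, 2 fell and 12 did not pass. Cd3e, the T cell receptor subunit, did not pass at 0.27 ± 0.13, and the mean level of that list was 6.73 to 6.78 on MEF arrays and 6.87 to 7.14 on MEF-derived ieSC arrays. Of the whole list of the Serpinb9 region, granzymes and Ctla2 genes, 12 of 23 rose and none fell (1 without name 1), and of the tested members 8 were dim in MEFs and none in MEF-derived ieSCs.

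**Figure D3:**
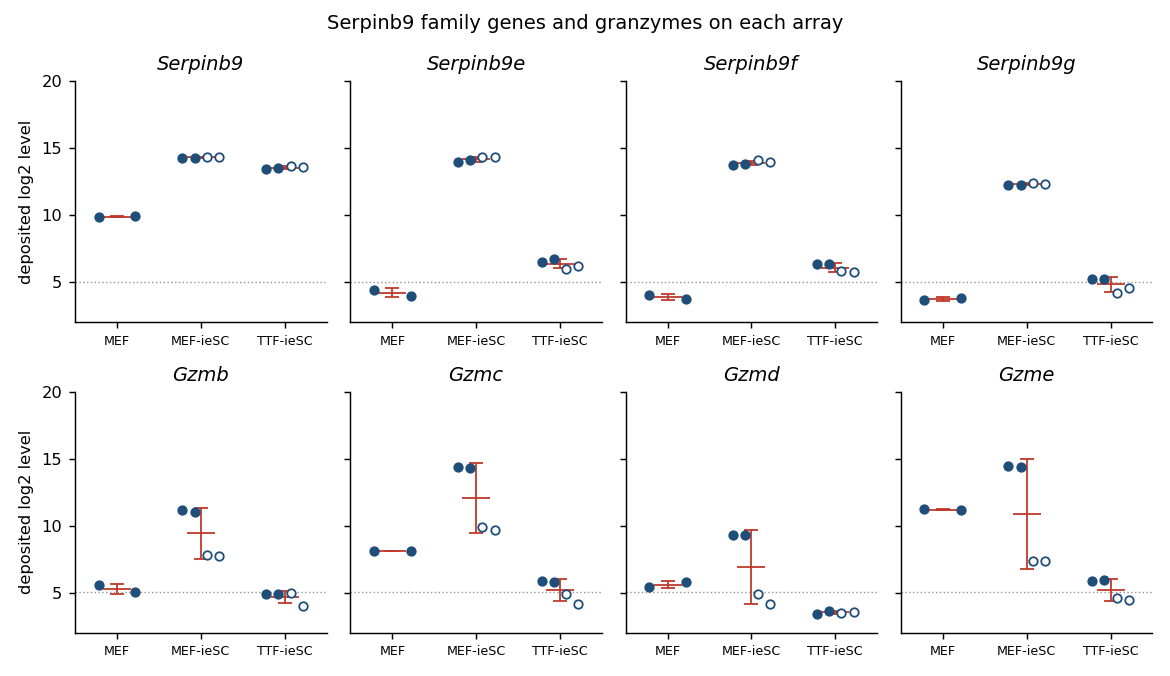
Each point is 1 array on the deposited log2 scale, with filled points for MEFs and name 1, open points for name 2, red bars for the mean ± SD and a dotted line at the 40th percentile. Serpinb9e, Serpinb9f and Serpinb9g lie at 12.22 to 14.30 on all 4 MEF-derived ieSC arrays and at 6.73 or below elsewhere, while the granzymes are high in name 1 and lower in name 2.

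Some placental genes were higher too. A stretch of chromosome 13 holds 14 prolactin-family genes, of which 9 were tested, 7 rose and 2 did not pass. Prl8a9, a placental prolactin-family hormone, lay at 3.63 and 3.70 in MEFs, 9.42, 9.49, 8.43 and 8.32 in MEF-derived ieSCs and 3.92 to 5.29 in TTF-derived ieSCs, a rise of 5.25 ± 0.48 (adjusted p = 1.54e-05). Prl2c5 rose by 6.92 ± 0.56 and did not pass between the ieSC groups (0.98 ± 0.46). The wider trophoblast and placental list had 54 genes with a feature, of which 25 were tested, and 10 rose, 2 fell and 13 did not pass. Of the 25, 14 were dim in MEFs and none in MEF-derived ieSCs. How many of them rose is thus in part set by the filter, and nothing is read from it. The trophoblast factors Cdx2 and Elf5 and the spongiotrophoblast marker Tpbpa were under 5 on all 6 MEF and MEF-derived ieSC arrays and were not tested. Ascl2, a factor of the same lineage, fell by 1.46 ± 0.26, and Plac8 fell from 11.15 and 11.17 to 5.45, 5.72, 4.60 and 5.24, by 5.90 ± 0.37.

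Some genes of secreted proteins of the reproductive tract were higher. Of 29 cystatins and related genes with a feature 18 were tested, and 10 rose, 1 fell (2 without name 1) and 7 did not pass, while 6 of the 18 were dim in MEFs and none in MEF-derived ieSCs. Cst12, a cystatin of the male reproductive tract, lay at 3.36 and 3.21 in MEFs, 12.93, 12.98, 13.81 and 13.82 in MEF-derived ieSCs and 8.43 to 9.52 in TTF-derived ieSCs, a rise of 10.10 ± 0.40 (adjusted p = 7.93e-08). Cst9, another cystatin of Sertoli cells, rose by 3.39 ± 0.48, and Lcn2, a lipocalin that binds bacterial iron carriers, by 5.18 ± 0.15. Cst3, the cystatin that most cells secrete, was the gene that fell, by 0.67 ± 0.13.

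Genes of the response to low oxygen and of glycolysis were higher as a list. Of 35 tested, 28 rose, 5 fell and 2 did not pass, with a median of 1.55. Ero1a, an oxidase of the endoplasmic reticulum, lay at 9.04 and 8.91 in MEFs and 13.01, 12.99, 12.93 and 12.92 in MEF-derived ieSCs, and rose by 3.98 ± 0.16 (adjusted p = 9.55e-08). Vegfa, the growth factor of blood vessels, rose by 2.55 ± 0.12, and Egln3, an oxygen-sensing hydroxylase, by 5.70 ± 0.37. Epas1, which encodes HIF-2alpha, rose by 2.30 ± 0.13 on its brightest feature, while its features ranged from -0.26 to 2.50. Classical targets fell as well: Adm, the vessel peptide adrenomedullin, went from 13.40 and 13.39 to 6.91, 6.87, 7.55 and 7.80, a fall of 6.11 ± 0.40, and Car9, the carbonic anhydrase, fell by 2.37 ± 0.40 (adjusted p = 0.0514 with names averaged). Eno2, Slc16a3 and Hk1 fell by 3.53 ± 0.37, 0.82 ± 0.16 and 0.56 ± 0.14, and the difference of Hk1 was 0.27 and did not pass (adjusted p = 0.0562) when all its features were averaged. In TTF-derived ieSCs against the same MEF arrays 27 of the 35 were called higher and 2 lower. Between the ieSC groups 10 were higher and 10 lower in MEF-derived cells and 15 did not pass. With names averaged 4 were higher and 4 lower, and without name 1 of MEF-derived ieSCs 16 were higher and 6 lower.

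Genes of the antioxidant response were likewise higher. Of 36 targets of NRF2 and genes of glutathione tested, 23 rose, 5 fell (3 with names averaged) and 8 did not pass, with a median of 0.90, and 14 were also higher than in TTF-derived ieSCs (7 with names averaged). Gss, glutathione synthetase, lay at 10.64 and 10.62 in MEFs, 12.81, 12.76, 12.67 and 12.69 in MEF-derived ieSCs and 11.23 to 11.42 in TTF-derived ieSCs, a rise of 2.11 ± 0.11 (adjusted p = 4.09e-07), and the 3 groups did not overlap. Nqo1, a quinone reductase, rose by 4.28 ± 0.24 and Prdx1, a peroxiredoxin, by 1.72 ± 0.10. Gpx3, a secreted glutathione peroxidase, fell by 6.94 ± 0.64, with name 1 above name 2. Of 16 aldo-keto and steroid-modifying enzymes tested, 9 rose, 2 fell and 5 did not pass. All 4 tested genes of the Akr1c stretch of chromosome 13 rose. Akr1c18, which breaks down progesterone, showed the largest rise of all: 5.71 and 5.46 in MEFs and 16.44, 16.54, 17.82 and 17.58 in MEF-derived ieSCs, a difference of 11.51 ± 0.67 (adjusted p = 7.55e-07), and 2.77 ± 0.54 above TTF-derived ieSCs (adjusted p = 0.00351, and 0.0986 with names averaged).

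Most genes of iron handling rose and most of cholesterol synthesis fell. Of 22 genes of iron handling, 12 rose, 4 fell and 6 did not pass. Trf, which encodes transferrin and is secreted by Sertoli cells, lay at 11.96 and 12.05 in MEFs, 16.03, 15.96, 17.27 and 17.41 in MEF-derived ieSCs and 13.99 to 14.37 in TTF-derived ieSCs, and rose by 4.66 ± 0.41 (adjusted p = 1.24e-05), with name 2 above name 1. Of 35 lysosome genes 12 rose (34.3%, near the 27.2% of all genes, and 8 with names averaged) and 6 fell, and 18 were higher than in TTF-derived ieSCs, of which 3 passed with names averaged. Scarb2, a lysosome membrane protein, rose by 3.60 ± 0.21. Of 20 genes of cholesterol synthesis, 12 fell, 3 rose and 5 did not pass, with a median of -1.15. Mvk, mevalonate kinase, fell from 14.46 and 14.27 to 12.47, 12.47, 12.54 and 12.68, by 1.82 ± 0.16 (adjusted p = 1.24e-05), and Insig1, the sterol sensor, by 2.39 ± 0.29. Hsd17b7, a late enzyme of the pathway, rose by 1.30 ± 0.14 and was 3.04 ± 0.11 above TTF-derived ieSCs. Of 50 genes of oxidative phosphorylation 8 rose, 3 fell and 39 did not pass. Of 48 genes of ribosome biogenesis 5 rose, 11 fell, near the 24% of all genes, and 32 did not pass. Falls of that list numbered 6 without name 2, and rises 3 without MEF array a. With names averaged 5 genes of oxidative phosphorylation rose, and 2 of ribosome biogenesis rose and 3 fell.

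**Figure D4:**
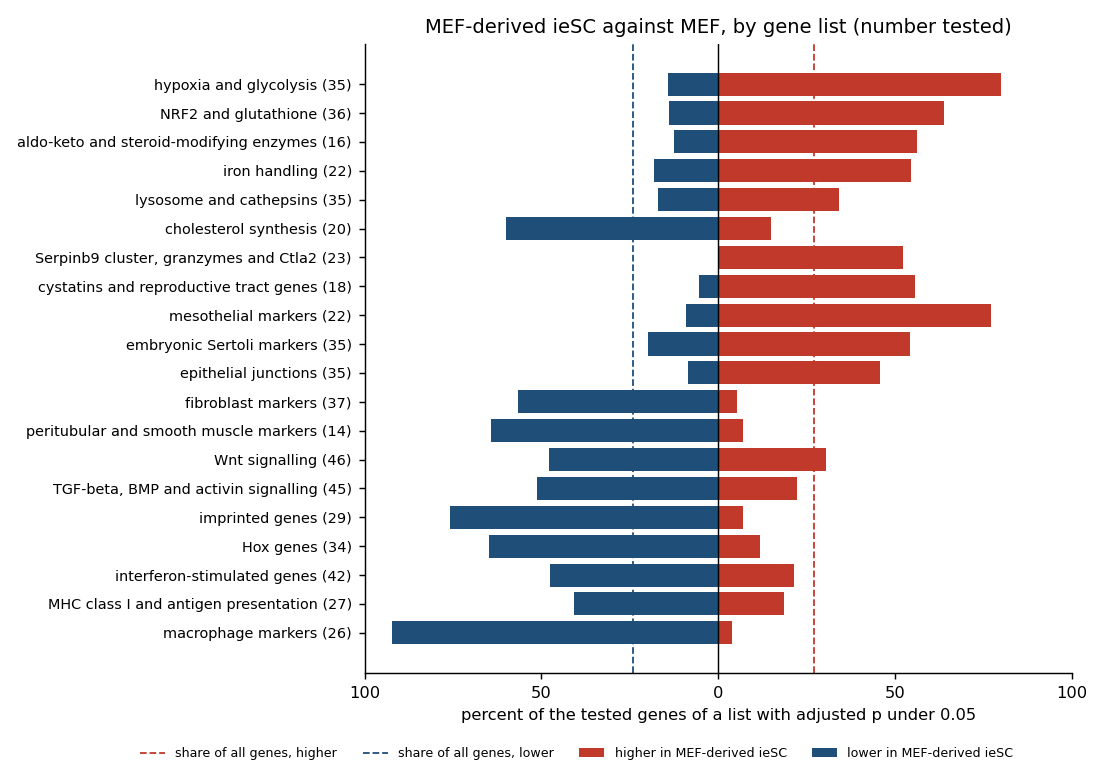
Bars give the percent of the tested genes of each list that were higher (right, red) or lower (left, blue) in MEF-derived ieSCs than in MEFs with an adjusted p under 0.05, with the number tested beside the name. Dashed lines mark the shares among all genes, 27.2% and 24%. For the Serpinb9, cystatin and aldo-keto lists the share higher is in part set by the filter, and nothing is read from it. For the macrophage, imprinted and Hox lists the share lower is in part set by the filter as well. Hypoxia and glycolysis (80% higher) and mesothelial markers (77.3%) extend furthest right, and macrophage markers (92.3% lower) and imprinted genes (75.9%) furthest left.

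The labelled cell type was checked against its markers. Of 42 embryonic Sertoli markers with a feature, 35 were tested, and 19 rose, 7 fell and 9 did not pass, with a median of 1.21. Amh, the hormone of fetal Sertoli cells, and Fshr, the receptor for follicle-stimulating hormone, were at or near the dim end on all 6 arrays, at 4.32 to 5.45 and 2.68 to 3.61 in MEF-derived ieSCs, and were not tested. Dhh, the hedgehog ligand of Sertoli cells, lay at 5.59 and 5.34 in MEFs and 12.28, 12.25, 12.06 and 12.22 in MEF-derived ieSCs, a rise of 6.74 ± 0.15 (adjusted p = 5.61e-09), but was 0.99 ± 0.13 lower than in TTF-derived ieSCs. Erbb4, a neuregulin receptor, rose by 6.68 ± 0.33, from 5.06 and 5.02 in MEFs to 11.56, 11.69, 11.90 and 11.73, with TTF-derived ieSCs between them at 7.33 to 8.44. Gatm, which makes the precursor of creatine, rose by 5.39 ± 0.21 and was 3.41 ± 0.17 above TTF-derived ieSCs. Of Krt18 and Krt8, the keratin pair of simple epithelia, Krt18 rose, while Krt8 was below MEFs in name 1 and above them in name 2. Krt18 lay at 9.66 and 9.71 in MEFs and 14.53, 14.50, 15.67 and 15.61 in MEF-derived ieSCs, a rise of 5.39 ± 0.45 (adjusted p = 8.68e-06), while TTF-derived ieSCs were at 9.33 to 10.51. Krt8 lay at 7.24 and 7.10 in MEFs and 5.88, 5.64, 8.02 and 8.05 in MEF-derived ieSCs and did not pass (-0.28 ± 0.77), while it was 3.15 ± 0.63 lower than in TTF-derived ieSCs (-2.02 without name 1, and adjusted p = 0.107 with names averaged). The gonadal factors Lhx2, Emx2 and Lhx9 fell by 5.04 ± 0.32, 4.76 ± 0.54 and 1.96 ± 0.27. Between the ieSC groups 15 Sertoli markers were higher and 5 lower in MEF-derived cells, and with names averaged 6 and 3.

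Markers of the mesothelium, the lining of the body cavities that also expresses Wt1, were higher as a list. Of 22 tested 17 rose, 2 fell and 3 did not pass, with a median of 3.88. Msln, mesothelin, lay at 13.37 and 13.36 in MEFs, 18.15, 18.13, 18.47 and 18.47 in MEF-derived ieSCs and 17.78 to 18.23 in TTF-derived ieSCs, a rise of 4.94 ± 0.20 (adjusted p = 7.96e-08), and the ieSC groups overlapped. Dpp4, a surface peptidase, rose by 7.49 ± 0.32. The 2 that fell were Krt19 and Aldh1a2. Krt19, a keratin, lay at 10.41 and 10.42 in MEFs, 5.79, 5.43, 5.84 and 5.77 in MEF-derived ieSCs and 10.88 to 11.12 in TTF-derived ieSCs, a fall of 4.71 ± 0.22 from MEFs, and Aldh1a2, a retinoic acid synthase, fell by 5.08 ± 0.32. Of 35 genes of epithelial junctions 16 rose, 3 fell (5 without array 2a) and 16 did not pass. Evpl, the envoplakin of desmosomes, rose by 5.98 ± 0.13 and Dsp, desmoplakin, by 5.67 ± 0.22, while Cdh3, P-cadherin, fell by 7.22 ± 0.29. Cdh1, which encodes E-cadherin, and Epcam were under 5 on all 6 arrays and were not tested.

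Fibroblast markers fell in part. Of 37 tested, 21 fell, 2 rose and 14 did not pass, with a median of -2.34. Thy1, a surface protein of fibroblasts, went from 17.27 and 17.21 to 5.64, 5.54, 4.80 and 5.36, by 11.91 ± 0.31 (adjusted p = 9.76e-09). Col1a2 fell by 10.99 ± 0.56, whereas its partner Col1a1 stayed at 17.35 and 17.34 and 17.08, 17.04, 17.04 and 16.94 (-0.31 ± 0.14, adjusted p = 0.0976). Col3a1, Fn1 and Vim, which encode collagen III, fibronectin and vimentin, did not pass, at 0.21 ± 0.15, 0.31 ± 0.12 and 0.26 ± 0.18. Timp3, an inhibitor of matrix proteases, and Cdh2, N-cadherin, rose by 1.25 ± 0.19 and 0.71 ± 0.22, although Cdh2 was at 0.38 without name 1, did not pass without MEF array b (adjusted p = 0.0557) and did not pass with names averaged (adjusted p = 0.158). Without name 1, 5 fibroblast markers rose, and without MEF array b or with names averaged 1. Fbln1, a matrix glycoprotein, lay at 13.57 and 13.69 in MEFs, 6.42, 6.66, 7.24 and 7.14 in MEF-derived ieSCs and 13.35 to 13.67 in TTF-derived ieSCs, where it was as high as in MEFs. It fell by 6.76 ± 0.26 against MEFs and lay 6.69 ± 0.21 below TTF-derived ieSCs. Of 14 peritubular and smooth muscle markers 9 fell and 1 rose. Acta2, smooth muscle actin, was not among them (-0.73 ± 0.34, adjusted p = 0.0982; -1.21 without name 1, where it passed) and lay 2.00 ± 0.27 above TTF-derived ieSCs.

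Among the other cell types of the gonad and of a fibroblast culture counted next, no marker list had more rises than falls. List medians were -0.88 for granulosa, -0.63 for Leydig, -1.90 for muscle and -0.48 for endothelial markers. They were 0.40 for neuronal, 0.07 for adipocyte, 0.53 for osteoblast and 0.11 for germ cell markers, beside 0.10 over all genes. The rises of granulosa, neuronal and osteoblast markers were near the 27.2% of all genes. Of 11 granulosa markers 6 fell and 3 rose, and Foxl2, the ovarian factor, lay at 14.62 and 14.72 in MEFs and 14.77, 14.64, 14.83 and 14.55 in MEF-derived ieSCs and did not pass. Of 11 Leydig and steroidogenic markers 5 fell and 2 rose, and Cyp11a1, the enzyme that starts steroid synthesis, fell by 5.73 ± 0.56 to a level at the dim end. Of 16 muscle markers 9 fell and 3 rose, of 12 endothelial markers 5 and 2, of 21 neuronal markers 7 and 5, of 10 adipocyte markers 4 and 2, of 12 osteoblast genes 3 and 3, and of 12 germ cell and pluripotency markers 2 and 0. Of these small counts, the rises of neuronal markers became 8 without name 2, those of adipocyte markers 1 without MEF array b, and either count of germ cell markers 1 when 1 of several arrays was left out. With names averaged, rises numbered 3 for neuronal and 1 each for Leydig, endothelial and adipocyte markers. Tlx2 and Prph, a homeobox factor and an intermediate filament of peripheral neurons, rose by 9.97 ± 0.24 and 9.48 ± 0.24, and Prph was 2.29 ± 0.19 lower than in TTF-derived ieSCs. Of 17 keratins 6 rose and 2 fell, and of 5 tested Rhox genes 1 rose, Rhox5, by 5.83 ± 0.56, and 1 fell, Rhox8, by 1.67 ± 0.15 (2 fell without MEF array b).

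Genes of the Wnt pathway moved in both directions. Of 46 tested genes 22 fell (47.8%), 14 rose (30.4%, near the 27.2% of all genes) and 10 did not pass. Rspo3, an R-spondin that strengthens the signal, fell from 14.65 and 14.60 to 3.58, 3.37, 3.58 and 3.22, by 11.19 ± 0.39 (adjusted p = 4.06e-08), and its relative Rspo1, known for its part in the gonad, rose from 12.10 and 11.91 to 15.35, 15.21, 15.66 and 15.55, by 3.44 ± 0.20 (adjusted p = 8.11e-07). The ligand Wnt5a fell by 7.68 ± 0.25 and the inhibitor Dkk3 by 11.27 ± 0.34, and the ligand Wnt4 rose by 3.44 ± 0.23. Ror2, a receptor for Wnt5a, lay at 12.84 and 12.75 in MEFs, 3.41, 3.80, 3.88 and 4.08 in MEF-derived ieSCs and 9.69 to 10.13 in TTF-derived ieSCs, and fell (adjusted p = 1.29e-08). Among genes that the signal itself switches on, Axin2 rose from 4.66 and 4.89 to 7.60, 7.43, 8.08 and 7.84, by 2.96 ± 0.31, Rnf43 by 3.90 ± 0.26, Tcf7 by 2.22 ± 0.28 and Znrf3 by 0.95 ± 0.18. Sp5 rose by 3.46 ± 1.20 (adjusted p = 0.0374), with array 2a at 9.57 and the other 3 at 6.61 to 6.86. Without array 2a its rise was 2.77 (adjusted p = 4.45e-05), and it did not pass without array 1a, either MEF array or any TTF-derived array (adjusted p = 0.0502 to 0.0766). Lgr5, the receptor for R-spondins and also a target, fell by 9.45 ± 0.82, and the targets Nkd1 and Dkk1 fell by 2.52 ± 0.38 and 1.47 ± 0.24. Notum, another target, did not pass (0.37 ± 0.21). These targets were named after their values were seen.

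In the TGF-beta, BMP and activin list 23 of 45 fell (51.1%), 10 rose (22.2%, near the 27.2% of all genes) and 12 did not pass. With names averaged 6 rose. Tgfbi, a matrix protein induced by TGF-beta, lay at 16.48 and 16.41 in MEFs, 5.95, 5.96, 6.30 and 5.99 in MEF-derived ieSCs and 10.92 to 11.19 in TTF-derived ieSCs, a fall of 10.40 ± 0.18 (adjusted p = 4.94e-09). Bmp4 fell by 10.20 ± 0.59 and Bmp7, another BMP ligand, rose from 6.61 and 6.53 to 9.84, 9.58, 10.64 and 10.71, by 3.62 ± 0.49. Fst, follistatin, the binder of activin, fell by 4.06 ± 0.17, while Inhba, a subunit of activin, was above MEFs in name 1 and below them in name 2 and did not pass (-0.11 ± 0.63). In the FGF and EGF list 14 of 33 fell and 10 rose, the rises near the 27.2% of all genes. With names averaged 6 rose. The ligand Fgf7 fell by 7.31 ± 0.41 and the receptor Egfr by 3.21 ± 0.19, and Fgf1 rose by 3.81 ± 0.32 on its brightest feature (features 0.77 to 3.81).

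Most of the tested imprinted and Hox genes were lower, a share that is in part set by the filter. Dim on every MEF-derived ieSC array were 6 of 29 imprinted and 11 of 34 Hox genes. In MEFs 1 and 0 were dim. Of 29 imprinted genes tested 22 fell, 2 rose (1 without MEF array b or TTF-derived array 2b, none with names averaged) and 5 did not pass, with a median of -2.94. Meg3, a maternally expressed RNA, went from 17.34 and 17.32 to 4.23, 4.47, 4.54 and 4.31. It fell by 12.94 ± 0.40, the largest fall of all (adjusted p = 2.03e-08), and its 3 features ranged from -12.94 to -7.05. In TTF-derived ieSCs Meg3 was as dim (3.55 to 4.52). Mest and Grb10, named after their values were seen, fell by 2.99 ± 0.38 and 2.46 ± 0.31 from MEFs but were 8.41 ± 0.31 and 6.01 ± 0.25 above TTF-derived ieSCs. Mest lay at 15.83 and 15.91 in MEFs, 13.23, 13.38, 12.47 and 12.45 in MEF-derived ieSCs and 4.02 to 4.77 in TTF-derived ieSCs. Plagl1, a zinc finger factor, went the other way: 16.92 and 16.84 in MEFs, 5.93, 5.95, 4.74 and 4.89 in MEF-derived ieSCs and 12.86 to 13.87 in TTF-derived ieSCs, a fall of 11.50 ± 0.43 on its brightest of 4 features, which ranged from -11.50 to -1.06. Of 34 Hox genes 22 fell, 4 rose (1 with names averaged) and 8 did not pass. Hoxb2 fell by 7.13 ± 0.26 and Hoxa9 rose by 1.80 ± 0.19.

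Genes of the immune response fell in the same comparison as the macrophage markers, whose part in these falls was not tested. Of 42 interferon-stimulated genes 20 fell, 9 rose and 13 did not pass, and with names averaged 13 fell and 3 rose. Ifitm1, an antiviral membrane protein, lay at 11.66 and 11.68 in MEFs, 5.49, 5.10, 5.79 and 5.59 in MEF-derived ieSCs and 7.40 to 7.72 in TTF-derived ieSCs, and fell by 6.18 ± 0.24 (adjusted p = 7.93e-08). Irf8, a factor of macrophages, fell by 5.95 ± 0.41 to the dim end, while Irf1 rose by 1.39 ± 0.14. Of 27 genes of antigen presentation 11 fell and 5 rose, and with names averaged 4 fell. Psmb8, a subunit of the immunoproteasome, lay at 10.99 and 10.99 in MEFs, 7.42, 7.15, 5.53 and 5.19 in MEF-derived ieSCs and 8.42 to 9.95 in TTF-derived ieSCs, a fall of 4.67 ± 0.72. B2m, the light chain of MHC class I, fell by 1.43 ± 0.32 (adjusted p = 0.00456, and 0.0926 with names averaged). Of 22 complement genes 10 fell and 4 rose, with C3, the central component, at 13.12 and 13.11 in MEFs and 15.61, 15.56, 17.97 and 17.97 in MEF-derived ieSCs, a rise of 3.66 ± 0.90 (adjusted p = 0.00764, and 0.118 with names averaged).

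Secreted factors known from senescent cells moved both ways. Of 24 tested 12 fell, 5 rose and 7 did not pass, with a median of -0.66, and with names averaged 3 rose. Those that rose were Il6, Ccl2 (adjusted p = 0.0807 with names averaged), Ccl8, Ereg and Vegfa. Il6, interleukin 6, lay at 11.99 and 12.13 in MEFs and 13.34, 13.44, 13.93 and 13.92 in MEF-derived ieSCs, a rise of 1.60 ± 0.35 (adjusted p = 0.00421, and 0.0898 with names averaged). Ereg, an EGF-like ligand, rose by 2.73 ± 0.43, and the chemokine Ccl8 by 2.20 ± 0.27. Igfbp3, which binds insulin-like growth factors, fell by 11.27 ± 0.55 and the chemokine Cxcl5 by 8.62 ± 0.77. These values stand beside the rise of Cdkn2a, Cdkn2b and Cdkn1a and the fall of the mitosis genes, and whether they belong together was not tested.

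The largest changes that MEF-derived ieSCs showed against both MEFs and TTF-derived ieSCs were chosen by both comparisons and are given as a description. Upward they were led by Akr1c18, Gm2022, Cst12, Serpinb9f, Serpinb9e, Gm8300 and BB287469. Gm2022 lay at 6.18 and 6.21 in MEFs and 16.38, 16.45, 16.73 and 17.36 in MEF-derived ieSCs, against 11.74 to 13.93 in TTF-derived ieSCs. Gm2022, Gm8300 and BB287469 are predicted genes of a repeated stretch of chromosome 12, in which all 5 tested genes rose, and their copies cannot be told apart. C130073F10Rik, a predicted protein-coding gene, lay at 3.74 and 3.40 in MEFs, 11.35, 11.32, 12.96 and 13.10 in MEF-derived ieSCs and 3.74 to 5.23 in TTF-derived ieSCs. Tslrn1, a long noncoding RNA gene, lay at 4.31 and 4.49, 12.58, 12.48, 12.69 and 12.75 and 5.02 to 5.84 in the same groups. Downward they were led by Plagl1, Myl9, H19, Tgfbi, Cd302, Bmp4 and Gadd45g. Myl9, a myosin light chain of smooth muscle, went from 18.20 and 18.16 in MEFs to 7.29, 6.78, 7.30 and 7.18 in MEF-derived ieSCs, with TTF-derived ieSCs at 8.33 to 9.33. H19, an imprinted RNA, went from 18.39 and 18.33 to 7.01, 7.24, 7.92 and 8.01, with TTF-derived ieSCs at 9.07 to 10.56. With names averaged Akr1c18, Gm2022, Gm8300, BB287469, Myl9, H19, Cd302 and Bmp4 did not pass between the ieSC groups. With dim values raised to the 40th percentile the difference of Cd302 between the ieSC groups went from -1.06 ± 0.18 to -0.000667 (adjusted p = 0.998), so all of it lay at the dim end. Against MEFs alone the largest falls after Meg3 were Penk, Cxcl14, Cxcl12 and Thy1, at -12.83 ± 0.36, -12.78 ± 0.42, -12.20 ± 0.67 and -11.91 ± 0.31, and for all of them the ieSC groups were at or near the dim end, at 3.37 to 4.08 in MEF-derived and 3.97 to 4.38 in TTF-derived ieSCs for Penk, the proenkephalin gene.

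The 2 names of MEF-derived ieSCs were not alike in every gene. The mean levels of names 1 and 2 differed by at least 2 on the log2 scale in 151 genes, 119 higher in name 1 and 32 in name 2, and the median absolute gap over all genes was 0.17. The widest gap was that of Gzme, 7.06, and Gzmd, Gzmc and Mcpt8, a mast cell protease gene of the same stretch of chromosome 14, differed by 4.76, 4.56 and 4.53. Mcpt8 lay at 8.61 and 8.56 in MEFs and 8.80, 8.78, 4.35 and 4.16 in MEF-derived ieSCs, where name 2 alone was below MEFs. These genes were named after their values were seen. With only 2 arrays a name the gap has no test of its own. Without name 1, 8337 genes passed against MEFs, of which 7803 were among the 8524 calls in the same direction. Without name 2, 8350 passed, of which 7700 were among those calls.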

How the data were processed

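Total RNA of the 10 samples was hybridised to Agilent arrays, 1 colour each. The authors deposited 1 table of log2 values for 62976 features; limma is named in the submitters' processing notes, without a version, and how background was corrected is not given in the sources used. That the values are on a log2 scale was taken from their range, 0.288 to 19.02. The sorted columns were nearly alike (largest gap 0.0379 above the 40th percentile, medians 5.76 to 5.78), as quantile normalization leaves them, so a general shift in RNA cannot be seen, and the number of arrays limits the precision. The deposited values were not normalized again.

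Of the features 31465 carried 1 gene symbol in the platform annotation, none several and 31511 none, and only named features were used. By accession 29050 were matched to RefSeq (GRCm38.p6), which gave 3282 a newer symbol. Features above the 40th percentile of their array on at least 2 arrays were kept (25200, with 6265 left out). The feature with the highest mean stood for a gene, where 4839 of the 16650 genes had more than 1. Group means were fitted over all 10 arrays with limma 3.58.1 and statmod 1.5.0 in R 4.3.3, with the 5 names as a random block (consensus correlation 0.606, residual df 7) and Benjamini-Hochberg adjustment. The median SE was 0.191 against MEFs and 0.156 between the ieSC groups. The fit was tested on simulated data first, and Python 3.11.15, pandas 2.3.3, numpy 2.4.6 and matplotlib 3.10.9 made counts and figures.

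The 47 gene lists (1384 genes, 1318 with a feature), the comparisons and the rule for named genes were chosen with earlier results of these data known. The rule names the 5 transgene factors, the 5 largest rises and falls against MEFs, the 12 largest that also passed in the same direction between the ieSC groups, up to 6 members of a list by smallest p (10 for the cell cycle), members that did not pass, and genes whose features disagree. Other genes were named after their values were seen. The alternatives were names averaged, no block, array order as a covariate, 2 other filters, the mean of features, 75th percentile scaling, raised dim values, fewer arrays, and each array or name left out.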

Additional observations from a re-analysis of the deposited data

Results flagged for a closer look

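In 374 groups of 4 arrays of the named genes, 6 held an array far from the other 3, where chance gives about 1 in 20. On array 2a of MEF-derived ieSCs, Sp5 lay at 9.57 and Tgfbi at 6.30, above the other 3 arrays at 6.61 to 6.86 and 5.95 to 5.99. On arrays of TTF-derived ieSCs the apart values were low: Cdh3 at 3.74 and Meg3 at 3.55 on array 2a, and Gzmb at 4.02 and Mcpt8 at 3.98 on array 2b, with the others at 4.24 to 4.32, 4.38 to 4.52, 4.87 to 4.99 and 4.65 to 4.77.

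The difference between MEF-derived and TTF-derived ieSCs is also that between their differences from MEFs, since both share the 2 MEF arrays. For TTF-derived ieSCs the difference from MEFs holds the origin of the cells as well as conversion, as no array held unconverted TTFs. The difference between the ieSC groups passed in 5998 genes. In 286 of these the 2 kinds of ieSC were called in opposite directions against MEFs, 90 higher and 196 lower in MEF-derived ieSCs. Among the named genes, MEF-derived ieSCs were above and TTF-derived ieSCs below MEFs for Cdkn2a (2.85 and -9.52, a difference of 12.37), Cdkn2b (2.10 and -9.50, 11.60), Ccl8 (2.20 and -1.01, 3.22) and Hsd17b7 (1.30 and -1.74, 3.04). The order was turned for Top2a (-4.81 and 1.02, a difference of -5.83), Ube2c (-4.87 and 0.81, -5.68), Prc1 (-3.85 and 0.98, -4.83), Ckap2l (-3.83 and 0.99, -4.82) and Plk1 (-3.55 and 1.14, -4.69). It was turned as well for Slc16a3 (-0.82 and 1.90, -2.71) and Foxm1 (-1.62 and 0.87, -2.49).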

How the results depend on the processing

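Against MEFs the 8524 calls stayed within 1.5 times under every alternative run, from 5899 with names averaged to 10751 with no block, and leaving out 1 array gave 7705 to 8421. Between the ieSC groups 5998 calls became 2421 with names averaged, and leaving out 1 array gave 5417 to 5773. Without names 1 and 2 there were 5044 and 5945. With the number of the name as a replicate block over the 8 ieSC arrays 8339 passed, but the names share only a number: their deviations correlated at 0.297 over 16650 genes, with only 2 pairs. Of 187 named genes, 162 passed against MEFs and 143 of these in every alternative, and 16 of the other 19 were lost with names averaged. Between the ieSC groups 125 passed and 79 in every alternative. Turned directions were listed only where the main fit or the alternative passed. They were found for Gzme without name 2 (3.21 against MEFs) and Dpp4 without name 2 (-0.42 between the ieSC groups). Hk1 turned as the mean of its features (0.27 against MEFs and 0.52 between the ieSC groups). The cause was not tested. Differences that passed in neither fit also turned for some genes and are not listed. Dim levels limit what can be said: a fall to the 40th percentile is a fall to the end of the scale.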
